A study of Mus musculus with 2 samples.

Results

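The 10 genes described here encode transcription factors that pattern mesenchyme, the loose connective tissue of the embryo from which dermis, bone and fat arise. They were taken by symbol from the 27998 genes of the count matrix, and all 10 were found: the T-box genes Tbx15 and Tbx18, the paired-related homeobox genes Prrx1 and Prrx2, the basic helix-loop-helix genes Twist1, Twist2 and Tcf4, the mesenchyme homeobox genes Meox1 and Meox2, and the odd-skipped related gene Osr2. Each is represented by 1 row. The cells were precursors of fat cells, obtained by flow sorting from subcutaneous fat of WT mouse pups at 12 days of age. The pups had been cross-fostered to dams with milk fat of a high or a low n-6/n-3 PUFA ratio (PUFA, polyunsaturated fatty acid), with 1 sample for each condition. The number and sex of the pups behind each sample were not given in the sources used here. Both libraries lie in 1 matrix, marked by barcode suffix 1 or 2, and the labels do not say which suffix is which diet, so diets were not compared. Libraries 1 and 2 serve as 2 measurements of each cell state. With a single library per condition, and members chosen with results of these cells known, the comparisons between cell states carry no p-values.

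T-box factors bind DNA through the domain that gives them their name. In the mouse, Tbx15 acts in skeletal and dermal patterning and is known in fat as a factor that differs between depots, and Tbx18 acts in somites and in the mesenchyme around the urogenital tract. Prrx1 and Prrx2 are homeodomain proteins of limb and craniofacial mesenchyme, with Prrx1 widely used to label limb bud and fibroblast lineages. Twist1 and Twist2 act as dimers with E proteins, the class to which Tcf4 belongs, and Twist2 (Dermo1) was described in dermis. Tcf4 here is the E protein also called E2-2, not the Wnt effector Tcf7l2 that was once given the same name. Meox1 and Meox2 are homeodomain proteins of somites, and Meox2 (Gax) is also known from vascular cells. Osr2 is a zinc finger protein of palate, joint and tooth mesenchyme.

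The promoters of 3 members are shown because their levels parted between cell states, Meox2 most of all and the Twist pair in opposite directions. The sequences are RefSeq promoters of GRCm38.p6, the 250 bases before the RefSeq gene start, read 5′ to 3′ on the gene's strand. Matches to 4 motifs, searched on both strands, are in capitals: CANNTG, the E-box bound by Twist and E protein dimers, its form CATATG, the T-box core AGGTGT and the homeodomain core TAATTA.
Meox2: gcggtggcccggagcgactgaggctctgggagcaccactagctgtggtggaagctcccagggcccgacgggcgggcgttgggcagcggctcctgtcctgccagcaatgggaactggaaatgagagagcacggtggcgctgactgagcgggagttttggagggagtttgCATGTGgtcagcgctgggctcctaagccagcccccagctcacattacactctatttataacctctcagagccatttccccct
Twist1: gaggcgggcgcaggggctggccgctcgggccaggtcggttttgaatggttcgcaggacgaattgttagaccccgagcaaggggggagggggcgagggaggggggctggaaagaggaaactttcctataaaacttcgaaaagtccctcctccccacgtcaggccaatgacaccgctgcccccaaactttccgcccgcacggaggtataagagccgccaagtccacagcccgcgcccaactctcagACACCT
Twist2: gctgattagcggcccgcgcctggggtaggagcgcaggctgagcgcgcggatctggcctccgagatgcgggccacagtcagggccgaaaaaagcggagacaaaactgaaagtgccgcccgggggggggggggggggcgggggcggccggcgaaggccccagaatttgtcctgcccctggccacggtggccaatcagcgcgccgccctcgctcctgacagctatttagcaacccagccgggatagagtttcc
The Meox2 window lies at chr12:37108290-37108539 on the plus strand and holds 1 E-box, CATGTG. The Twist1 window lies at chr12:33957421-33957670 on the plus strand and holds the T-box core on the opposite strand in its last bases and no E-box. The Twist2 window lies at chr1:91801211-91801460 on the plus strand and holds none of the 4 motifs. Of 32851 RefSeq promoters, also read over the 250 bases before the start, 66.2% held CANNTG, 3.46% CATATG, 11.8% AGGTGT and 4.84% TAATTA. A promoter entry was found for 6 of the 10 members. Over the same 250 bases, the other 3 with an entry held 1 E-box in Tbx18, 1 TAATTA in Prrx1 and none of the motifs in Prrx2. The RefSeq starts of Prrx1 and Prrx2 lie inside the gene bounds of the GENCODE annotation. Osr2, Tbx15, Meox1 and Tcf4 had no entry. These matches describe letters in the windows.

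The matrix held 85584123 UMIs (unique molecular identifiers, one per captured transcript) in 6905 barcodes, of which 6873 were kept, 3301 in library 1 and 3572 in library 2. Median depth per cell was 12962 UMIs in library 1 and 12109 in library 2, and 17 barcode sequences occurred in both. The labels state 3000 sorted cells per condition. Clustering without the 10 members or related factors gave 8 clusters of precursors with 6760 cells and 3 small clusters outside the lineage. Names came from marker lists, with thresholds set after the data were seen. F3-type stromal-like cells (348, 5.06% of kept cells) raised 6 of 7 markers, F3 (tissue factor), Clec11a, Fmo2, Gdf10, Vit and Mgp, and Meox2 was not on that list. Committed preadipocyte-like cells (1231, 17.9%) raised 11 of 12 markers, among them Lpl, Fabp4 and Cd36. Dpp4-type progenitor-like cells (3066, 44.6%) formed 2 clusters that raised 9 and 11 of 12 markers, among them Dpp4, Pi16 and Wnt2. Cycling-like cells numbered 263 and also raised 4 of 5 erythroid markers. These markers together had 5780 CPM in library 1 and 19.9 CPM in library 2 of that cluster. A cluster of 643 cells led by Cilp, one of 1137 cells led by Scg3 and one of 72 cells led by Hist1h1c took no name. Outside the lineage were 49 endothelial-like, 46 macrophage- or monocyte-like and 18 erythroid-like cells, the last all in library 1. Doublet calling marked 12 of 6905 barcodes (0.174%), too few to have worked, so doublets remain.

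All 10 factors were found in the precursors, with different ranges across the 7 states. In the precursors together, UMI levels were 192 CPM (UMIs per 1000000 UMIs of the state) for Prrx1, 97.6 CPM for Tcf4, 90.0 CPM for Twist2, 85.9 CPM for Osr2 and 58.9 CPM for Twist1. They were 30.6 CPM for Prrx2, 24.8 CPM for Tbx15, 19.4 CPM for Tbx18, 12.4 CPM for Meox2 and 2.67 CPM for Meox1. These counts come from transcript ends and are not ranked between genes. Between the highest and the lowest state, the level differed 11.9-fold for Meox2, 2.87-fold for Osr2, 2.79-fold for Prrx2 and 2.37-fold for Tbx18. The other ratios were 1.82 for Twist2, 1.59 for Prrx1, 1.56 for Twist1, 1.45 for Tbx15 and 1.32 for Tcf4, while Meox1 had no UMI in the Hist1h1c-led cluster. At an equal depth of 7463 UMIs per cell, a precursor held UMIs of a median of 3 members, and 106 of 6113 precursors held none.

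**Figure D1:**
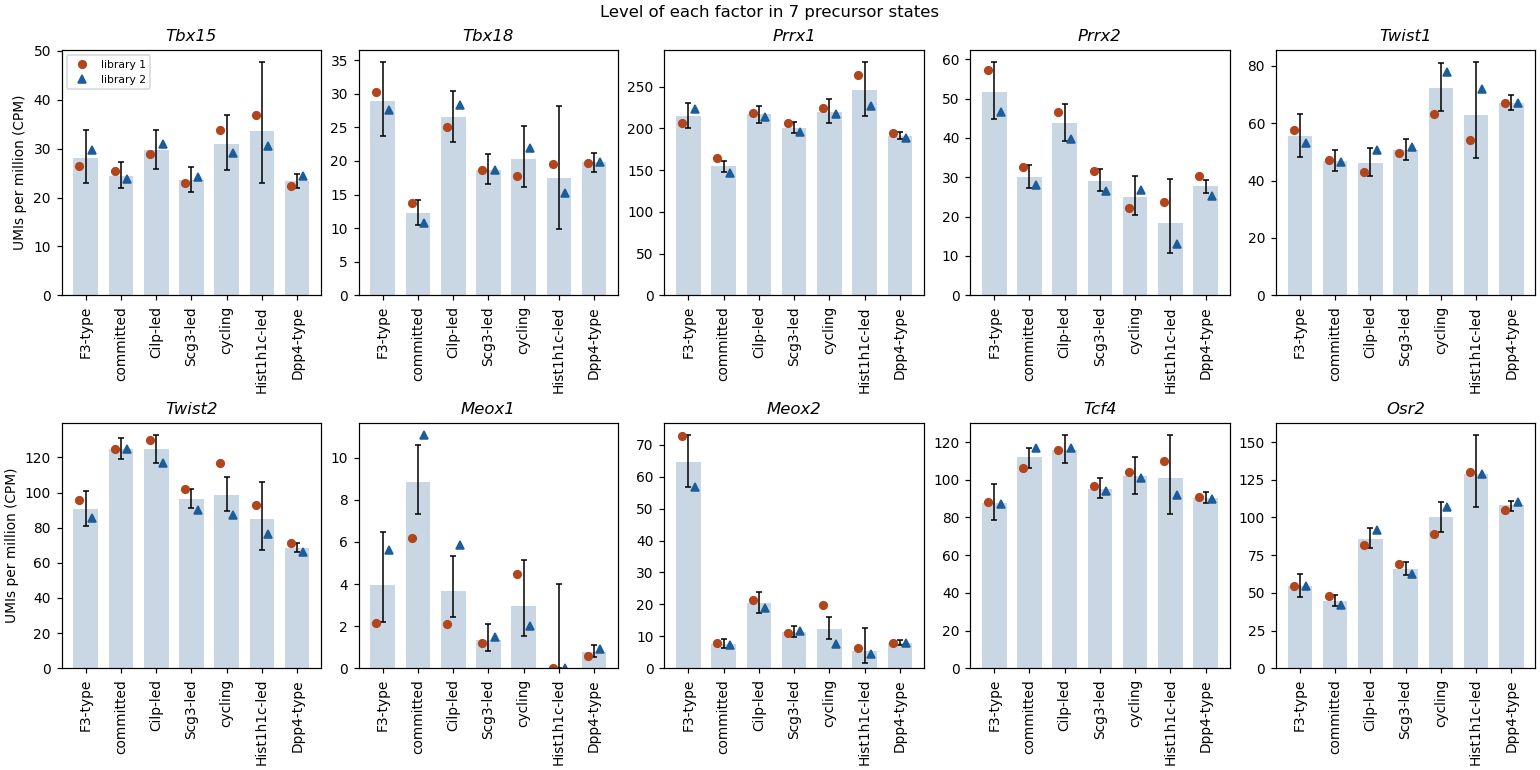
UMI level of each factor (CPM, vertical axis from 0, own scale per panel) in 7 precursor states. Bars are both libraries together, whiskers are exact Poisson 95% intervals (counting error only), circles are library 1 and triangles library 2. Meox2 stands at 64.6 CPM in F3-type cells and at 20.4 CPM or less in every other state shown, and Osr2 is lowest in committed cells, at 44.9 CPM.

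The F3-type, committed and Dpp4-type classes were compared on summed counts, and a gene was called when it differed by 2-fold or more with at least 10 CPM in 1 class. In committed over Dpp4-type cells, 8 members reached that level and 1 was called, Osr2, which was lower; of all 6918 genes at that level 10.4% were called, 5.49% as lower. In F3-type over Dpp4-type cells, 9 members reached the level and 1 was called, Meox2, which was higher, against 9.71% of 7068 genes called and 5.76% called higher. In F3-type over committed cells, 9 members reached the level and 2 were called, Meox2 and Tbx18, both higher, against 5.63% of 6843 genes called and 3.78% called higher. In both comparisons with F3-type cells, Meox2 reached the level only through those cells. The median log2 ratio of the members at the level was -0.12, 0.27 and 0.28 in these comparisons, beside -0.14, -0.04 and 0.09 over all genes at the level. The other 7 members were called in none of these comparisons, Meox1 because its pooled level stayed under 10 CPM. Scaling by DESeq2 size factors in place of total counts moved every log2 ratio of committed over Dpp4-type cells up by 0.15, and 57.5% of the genes called were then higher, in place of 47.1%. It moved ratios of F3-type over committed cells down by 0.12, with 55.4% higher in place of 67.3%.

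**Figure D2:**
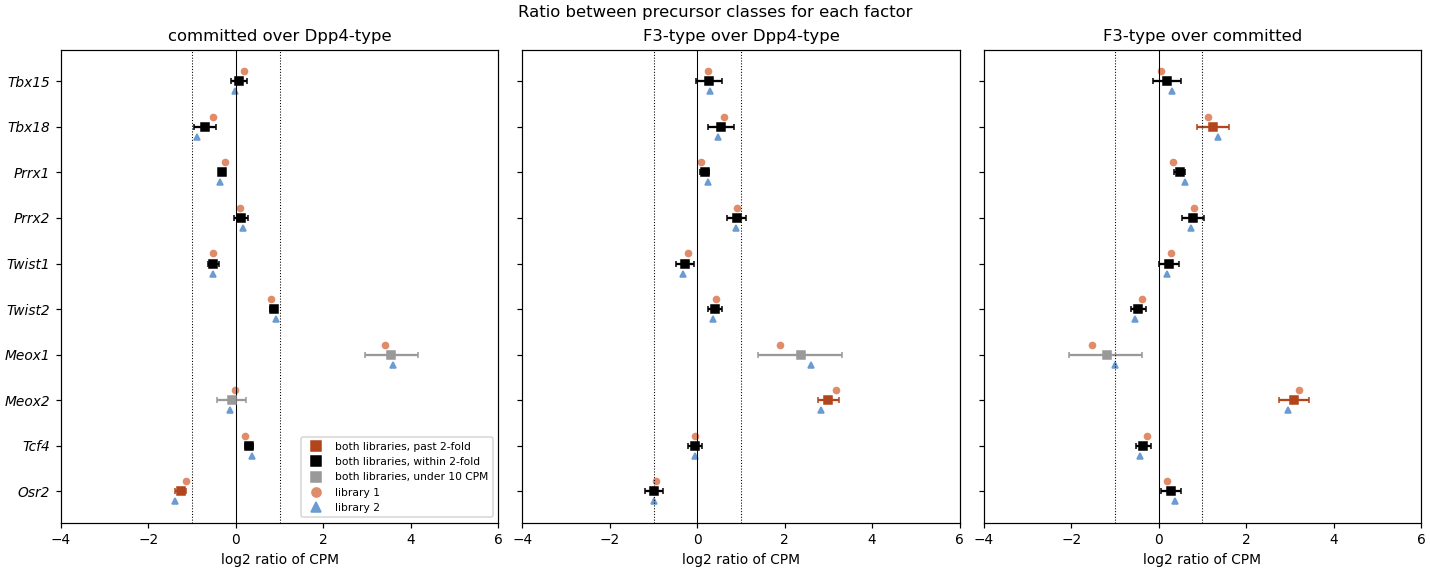
Log2 ratio of CPM between precursor classes for each factor (horizontal axis), with squares for both libraries and conditional exact 95% intervals for counting error only. Circles are library 1, triangles library 2, and dotted lines mark 2-fold. Meox2 lies at 3.00 and 3.09 in the comparisons with F3-type cells, and Osr2 at -1.26 in committed over Dpp4-type cells.

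Meox2 (chr12:37108540-37179534, plus strand; gene positions are those of the GENCODE annotation of GRCm38) was the member with the largest ratio among those called, and its high level was in F3-type cells. Its level was 72.8 CPM in library 1 and 56.8 CPM in library 2 of F3-type cells, 7.92 and 7.29 CPM in committed cells, and 8.05 CPM in each library of Dpp4-type cells. Both F3-type values lay above every value of committed and Dpp4-type cells. Endothelial-like cells, outside the lineage, had 48.0 CPM in library 1 and 89.5 CPM in library 2. The log2 ratio was 3.00 (95% interval 2.76 to 3.25) for F3-type over Dpp4-type cells and 3.09 (2.75 to 3.44) for F3-type over committed cells, with 3.18 in library 1 and 2.82 in library 2 for the first. For committed over Dpp4-type cells it was -0.09 (-0.42 to 0.24), an interval that spans 0. F3-type cells made up 5.15% of precursors and 4.55% of their UMIs but held 23.7% of Meox2 UMIs, 246 of 1036. Most Meox2 UMIs therefore lay outside that class. That Meox2 is high in these cells was known when it was chosen for description.

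Next after F3-type cells stood the Cilp-led cluster, with 21.4 and 18.9 CPM of Meox2 in libraries 1 and 2. The log2 ratio of that cluster over Dpp4-type cells was 1.34 (1.05 to 1.62), the only call among 9 members at the level there, where 5.65% of 7077 genes were called, 3.32% as higher. Meox2 reached the level there only through the Cilp-led cluster. Cycling cells had 19.8 CPM in library 1 and 7.56 CPM in library 2, so their place in the order rests on library 1. Scg3-led cells had 11.1 and 11.7 CPM. F3-type cells and the Cilp-led cluster did not overlap across libraries.

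The share of cells with a Meox2 UMI gave the same order. It was 39.9% of F3-type cells, 7.23% of committed cells and 9.33% of Dpp4-type cells, at median depths of 10793, 11022 and 13269 UMIs. At equal depth it was 32.3% (27.2 to 37.7%) of F3-type cells, 4.17% (3.08 to 5.51%) of committed cells and 5.46% (4.64 to 6.36%) of Dpp4-type cells. At that depth 9.81% of F3-type cells held 2 or more UMIs, against 0.0887% of committed and 0.143% of Dpp4-type cells. In the macrophage-like cells, taken as a background, 1 of 21 deep enough cells held a UMI (4.76%). Before thinning 6.52% did, at a median depth of 6869 UMIs. That background is loose, since at equal depth it rests on 1 cell. The macrophage-like cells also raised 6 of 8 endothelial markers and had 3440 CPM of the 12 Dpp4-type markers together. The shares in committed and Dpp4-type cells are near that background, and whether they are expression was not tested. The 252 F3-type cells with no UMI of 8 endothelial markers had 69.0 CPM.

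**Figure D3:**
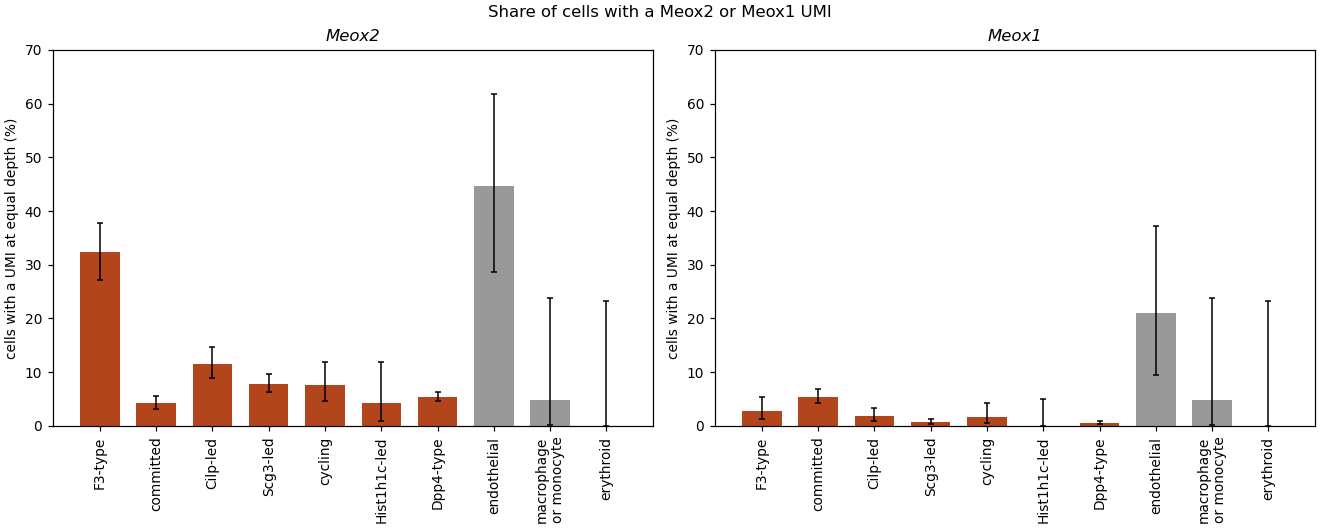
Share of cells with at least 1 UMI of Meox2 (left) or Meox1 (right) after each cell was reduced to 7463 UMIs, in percent from 0. Red bars are precursor states, grey bars cells outside the lineage, and whiskers exact binomial 95% intervals. Meox2 reaches 32.3% of F3-type cells, and Meox1 reaches 5.41% of committed cells.

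Meox1 (chr11:101877510-101894374, minus strand), the paralogue of Meox2, was scarce and had its highest precursor level in another class, the committed cells. It had 6.18 CPM in library 1 and 11.1 CPM in library 2 of committed cells, 2.16 and 5.62 CPM in F3-type cells, and 0.579 and 0.922 CPM in Dpp4-type cells. The committed values lay above those of both other classes in each library, but the libraries differed. The log2 ratio of committed over Dpp4-type cells was 3.55 (2.96 to 4.17) from 120 and 30 UMIs, and it was 3.42 in library 1 and 3.60 in library 2. It is not among the calls because the pooled level stayed under 10 CPM. Committed cells held 53.8% of the precursors' Meox1 UMIs with 16.2% of all UMIs. At equal depth 5.41% (4.17 to 6.90%) of committed and 0.571% (0.326 to 0.925%) of Dpp4-type cells held a UMI, beside 1 of 21 macrophage-like cells. No UMI was counted among 920374 in the Hist1h1c-led cluster, which allows up to 3.26 CPM.

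Endothelial-like cells had 58.4 CPM of Meox1, 67.8 CPM of Meox2 and 706 CPM of Tcf4. They also raised 6 of 8 mural and 6 of 8 adipocyte markers at a median of 19074 UMIs, and the part of doublets in these levels was not tested. Committed cells without any UMI of the 8 endothelial markers (878 of 1231) had 7.47 CPM of Meox1 in place of 8.84 CPM. In cells without such a UMI the level was 4.62 CPM in place of 6.18 CPM in library 1, and 9.70 CPM in place of 11.1 CPM in library 2. Dpp4-type cells, with no such selection, had 0.757 CPM. The part of doublets in the Meox1 level of committed cells was not tested.

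Osr2 (chr15:35296098-35303305, plus strand) was the one member called between committed and Dpp4-type cells on the total-count scale, while Meox1, below the level, had a larger ratio. Its level was 48.0 CPM in library 1 and 42.2 CPM in library 2 of committed cells, 54.5 and 54.7 CPM in F3-type cells, and 105 and 110 CPM in Dpp4-type cells. The Dpp4-type values lay above those of both other classes without overlap. The log2 ratio was -1.26 (-1.39 to -1.14) for committed over Dpp4-type cells, -1.13 in library 1 and -1.38 in library 2. It was -0.98 (-1.19 to -0.78) for F3-type over Dpp4-type cells, just short of the 2-fold line, and 0.28 (0.05 to 0.51) for F3-type over committed cells. The Scg3-led cluster had 69.2 and 62.2 CPM and the Cilp-led cluster 81.9 and 91.8 CPM, both between committed and Dpp4-type cells. The Hist1h1c-led cluster stood highest, at 130 and 129 CPM, but its log2 ratio over Dpp4-type cells, 0.27 from 119 UMIs, had an interval that spans 0 (-0.01 to 0.53). Within the Dpp4-type class, the Tmem100-led cluster had 113 and 123 CPM and the Ptgs2-led cluster 98.6 and 101 CPM. At equal depth 25.4% of committed and 49.7% of Dpp4-type cells held an Osr2 UMI, beside 33.3% of 21 macrophage-like cells and 14.3% of 14 erythroid-like cells. The committed share is thus no higher than that in macrophage-like cells. Those cells are no clean background, with 3440 CPM of the 12 Dpp4-type markers together, beside 2450 CPM in committed cells. How much of the committed share is background was not tested.

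Twist1 (chr12:33957671-33959829, plus strand) and Twist2 (chr1:91801461-91848028, plus strand), close relatives that dimerize with E proteins, ran in opposite directions. Twist2 had 125 CPM in both libraries of committed cells, 96.0 and 85.4 CPM in F3-type cells, and 71.0 and 66.3 CPM in Dpp4-type cells. Twist1 had 47.1 and 46.6 CPM in committed cells, 57.7 and 53.2 CPM in F3-type cells, and 67.1 and 67.0 CPM in Dpp4-type cells. For each gene the 3 classes did not overlap across libraries. The log2 ratio of committed over Dpp4-type cells was 0.86 (0.77 to 0.95) for Twist2 and -0.52 (-0.65 to -0.39) for Twist1. Neither reached 2-fold on the total-count scale, and with DESeq2 size factors Twist2 came to 1.02 and was called. The Cilp-led cluster was like the committed cells in both, with 130 and 117 CPM of Twist2 and 43.1 and 50.8 CPM of Twist1. Over the 16 points given by 8 precursor clusters in 2 libraries, Pearson's r of log2(CPM + 10) between Twist1 and Twist2 was -0.75, a description of points that share libraries and neighbouring clusters. At equal depth 56.5% of committed and 37.4% of Dpp4-type cells held a Twist2 UMI, beside 23.8% of macrophage-like cells. For Twist1 the shares were 27.2% and 38.8%, beside 9.52% of macrophage-like cells.

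Tcf4, their E protein partner, had the smallest ratio between highest and lowest state over the 7 states, while over the 3 classes Tbx15 spanned less. It had 106 and 117 CPM in committed cells, 88.4 and 86.9 CPM in F3-type cells, and 91.0 and 90.0 CPM in Dpp4-type cells. Committed cells stood above both other classes in each library. The log2 ratio of committed over Dpp4-type cells was 0.30 (0.21 to 0.39). That of F3-type over Dpp4-type cells was -0.05 (-0.21 to 0.12), with a sign that changed in 2 of 14 alternative settings. Tcf4 and Twist2 had r of 0.80 over the 16 points.

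The T-box genes, Tbx15 (chr3:99240381-99354259, plus strand) and Tbx18 (chr9:87702800-87731260, minus strand), parted from each other. Tbx18 had 30.2 and 27.6 CPM in F3-type cells, 13.8 and 10.7 CPM in committed cells, and 19.7 and 19.9 CPM in Dpp4-type cells. The 3 classes did not overlap, with F3-type cells highest and committed cells lowest. The log2 ratio was 1.25 (0.89 to 1.61) for F3-type over committed cells, with 1.13 in library 1 and 1.36 in library 2, and 0.54 (0.24 to 0.83) for F3-type over Dpp4-type cells. For committed over Dpp4-type cells it was -0.71 (-0.96 to -0.46). The Cilp-led cluster, at 25.1 and 28.3 CPM, overlapped with F3-type cells. Tbx15 had 26.4 and 29.7 CPM in F3-type cells, 25.4 and 23.8 CPM in committed cells, and 22.3 and 24.3 CPM in Dpp4-type cells, and the last 2 overlapped. All its intervals between the 3 classes spanned 0. Its highest levels, 36.8 and 30.6 CPM, were those of the Hist1h1c-led cluster, from 31 UMIs in all, and cycling cells at 33.8 and 29.1 CPM overlapped with them.

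Of the paired-related genes, Prrx2 (chr2:30834972-30881251, plus strand) was highest in F3-type cells and Prrx1 (chr1:163245119-163313710, minus strand) lowest in committed cells. Prrx2 had 57.2 and 46.5 CPM in F3-type cells, 32.5 and 28.1 CPM in committed cells, and 30.3 and 25.2 CPM in Dpp4-type cells. Its F3-type values lay above the other 2 classes, which overlapped with each other. The log2 ratio was 0.90 (0.68 to 1.12) for F3-type over Dpp4-type cells and 0.78 (0.53 to 1.03) for F3-type over committed cells, short of 2-fold in both. The Cilp-led cluster, at 43.7 CPM of Prrx2, overlapped with F3-type cells across libraries. The log2 ratio of F3-type cells over that cluster was 0.24 (-0.02 to 0.50). Prrx1 had 207 and 223 CPM in F3-type cells, 164 and 146 CPM in committed cells, and 194 and 189 CPM in Dpp4-type cells. Those values did not overlap, and the log2 ratios were 0.48 (0.36 to 0.60) for F3-type over committed cells and -0.31 (-0.38 to -0.24) for committed over Dpp4-type cells. Prrx1 UMIs were found at equal depth in 73.4% of F3-type, 67.5% of committed and 74.3% of Dpp4-type cells, beside 47.6% of macrophage-like and 28.6% of erythroid-like cells. A noncoding gene on the same strand within Prrx1, Gm26523, had at most 8.32 CPM in the 3 classes.

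Neighbours in the order of levels often could not be parted. Of the 6 neighbouring pairs among 7 states, the library values overlapped in 5 pairs each for Tbx15 and Prrx2, 4 each for Twist1 and Twist2, 3 each for Tbx18 and Tcf4, and 2 each for Prrx1, Osr2, Meox1 and Meox2. The library values of the highest state lay above those of the next for Meox2 (F3-type), Meox1 (committed), Osr2 and Prrx1 (both Hist1h1c-led), though for Meox1 only narrowly, at 6.18 CPM in committed cells of library 1 against 5.62 CPM in F3-type cells of library 2. How many of all genes part in this way was not counted, so these counts are not a result about the members. The log2 ratio of the highest state over the next was 1.67 (1.37 to 1.97) for Meox2 and 1.17 (0.39 to 2.05) for Meox1. For Osr2 and Prrx1 the counting interval of that ratio spanned 0, and for Prrx1 it was 0.16 (-0.06 to 0.37). In cycling cells and in the Scg3-led cluster no member differed by 2-fold from Dpp4-type cells among 9 at the level each, where 7.82% of 7378 and 2.98% of 6843 genes were called. None of 8 members did in the Hist1h1c-led cluster, where 4.95% of 7147 genes were called.

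To look between the classes, the 6077 Dpp4-type, committed, Cilp-led and Scg3-led cells were ordered by the share of their marker UMIs that came from the committed list, and cut into 10 bins of like size, with bin 10 at the committed end. The ordering used none of the 10 members and was added after the data were seen. Dpp4-type cells made up 97.9% of bin 1 and committed cells 89.2% of bin 10. With both libraries together Osr2 was lower after each of the 9 steps, but in library 1 it was lower after 6 and higher after 3, and in library 2 lower after 7 and higher after 2. It had 120 CPM in bin 1, 98.5 CPM in bin 5, 58.6 CPM in bin 8 and 43.2 CPM in bin 10, and the log2 ratio of bin 10 over bin 1 was -1.47 (-1.67 to -1.28), with -1.34 in library 1 and -1.59 in library 2. Twist2 had 64.0 CPM in bin 1, 73.0 CPM in bin 5, 116 CPM in bin 8 and 131 CPM in bin 10, a log2 ratio of 1.03 (0.87 to 1.19). Twist1 stayed between 60.8 and 75.1 CPM through bin 5 and between 45.5 and 50.2 CPM from bin 6 on. Its log2 ratio between the ends was -0.54 (-0.75 to -0.33).

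Meox1 had its high level at the committed end of that order. It stayed at 2.30 CPM or less through bin 8, with 5.45 CPM in bin 9 and 14.2 CPM in bin 10. In bin 10 it had 8.26 CPM in library 1 and 19.2 CPM in library 2. Tcf4 had 126 CPM in bin 10 and 87.5 CPM in bin 1. Tbx15 had 26.2 CPM in bin 10 and 17.5 CPM in bin 1, a log2 ratio of 0.58 (0.24 to 0.92), although its intervals between the classes spanned 0. From bin 2 on Tbx15 stayed between 23.0 and 27.6 CPM, so its difference between the ends lay in the low level of bin 1. Prrx2 had 27.3 CPM in bin 10 and 28.7 CPM in bin 1, and Meox2 had 11.9 and 8.57 CPM, with intervals of the ratio that span 0. Tbx18 had 13.2 and 18.6 CPM, a log2 ratio of -0.49 (-0.89 to -0.09), and Prrx1 146 and 186 CPM, a ratio of -0.35 (-0.47 to -0.23). Both were highest between the ends, Tbx18 at 22.7 CPM in bin 4 and Prrx1 at 210 CPM in bin 7.

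**Figure D4:**
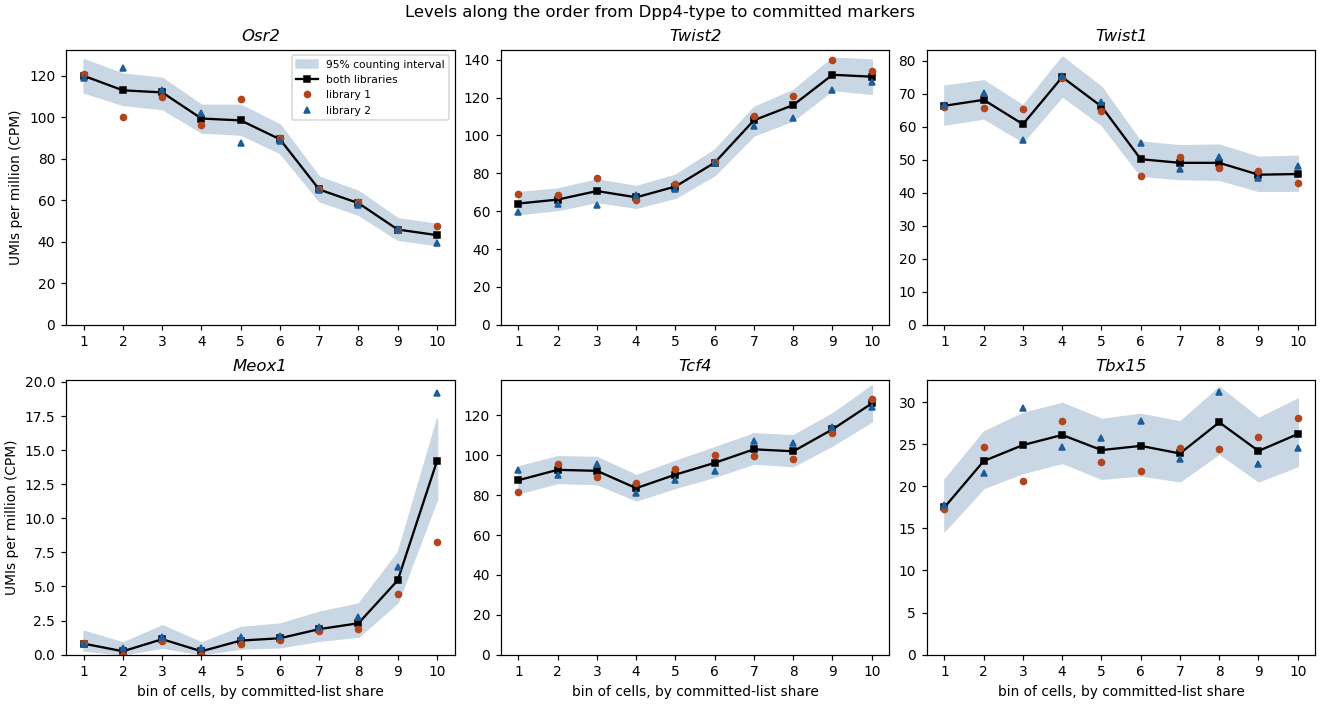
UMI level (CPM, from 0, own scale per panel) of 6 factors in 10 bins of 6077 cells, ordered by the committed-list share of marker UMIs (median 75.0% in bin 10 and 5.07% in bin 1). Black squares are both libraries with exact Poisson 95% bands, circles are library 1 and triangles library 2. Osr2 declines at every step of the black line but not of each library, and Meox1 stays at 2.30 CPM or less through bin 8.

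Among 82 related patterning factors, 24 reached the level in committed over Dpp4-type cells, and 4 were called, 1 higher and 3 lower, beside 10.4% of all genes. Osr1, the paralogue of Osr2, had 31.2 CPM in committed and 73.3 CPM in Dpp4-type cells, a log2 ratio of -1.23 that is close to that of Osr2. Irx3, an Iroquois homeobox gene, had 1.47 and 11.5 CPM, and the forkhead gene Foxp1 had 38.7 and 93.1 CPM. Irx3 reached the level only through Dpp4-type cells. Sox9, an HMG-box factor of cartilage and other mesenchyme, was the one higher, with 156 CPM in committed and 37.8 CPM in Dpp4-type cells. The median over the 24 was -0.05, beside -0.14 over all genes.

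In F3-type over Dpp4-type cells 27 related genes reached the level and 5 were called, 4 higher and 1 lower, beside 9.71% of all genes. Foxs1, a forkhead gene, had 11.5 CPM in F3-type and 0.353 CPM in Dpp4-type cells, and the homeobox gene Msx1 had 11.0 and 1.87 CPM. Id4 and Id1, whose products bind E proteins and block their dimers, were also higher. Id4 had 33.1 and 9.06 CPM, and Id1 had 10.2 and 4.69 CPM. Irx3 was lower, with 3.15 and 11.5 CPM. Each of these 5 genes reached the level only through the class where it was higher. In F3-type over committed cells 26 reached the level and 6 were called, beside 5.63% of all genes. Of these 5 were higher, Osr1, Msx1, Foxs1, Id4 and Shox2, and 1 was lower, Sox9. Msx1 and Foxs1, at least, reached the level there only through F3-type cells. Osr1 had 128 CPM in F3-type and 31.2 CPM in committed cells, a log2 ratio of 2.04, while that of Osr2 was 0.28. The Osr pair thus went together between committed and Dpp4-type cells and not between F3-type and committed cells. The median over related genes at the level was 0.21 and 0.12 in these comparisons, beside -0.04 and 0.09 over all genes.

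For each member the 3 genes of most similar pattern were taken by Pearson's r of log2(CPM + 10) over the 16 points, among 5959 genes. Meox2 was nearest to Rspo1 (r = 0.96), Fam134b and Ltbp4, and Osr2 to Ubxn1 (0.97), Golim4 and Trio. Twist2 was nearest to Ly6e (0.92), Cd36 and Ccdc80, and Twist1 to Rnf13 (0.91), Slc16a1 and Rspo3. Meox1 was nearest to Tmem176b (0.94), Apoe and Mmp19, Prrx2 to Adamts10 (0.95), Fam234a and Ctsa, and Prrx1 to Nub1 (0.91), Eef2k and Tsc22d4. Tbx18 was nearest to Phlda3 (0.84), Osr1 and Arhgap20, Tcf4 to Ndufa4 (0.86), Trafd1 and Pparg, and Tbx15 to Ppil4 (0.86), Rtf1 and Naa20. Among the members, Meox2 was most like Prrx2 (0.79) and Tbx18 (0.71), which were also highest in F3-type cells among the 7 states. For Prrx2 and Tbx18, however, library values of F3-type cells and the Cilp-led cluster overlapped. These likenesses rest on few clusters, and only 7 of the 30 genes were also among the top 3 by Spearman's rho.

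Within a class, cells with one member did not differ much from cells without it in the others. At equal depth, Pearson's r between the counts of 2 members over Dpp4-type cells lay between -0.03 and 0.06 for all 45 pairs, and over committed cells between -0.07 and 0.06. The same was seen for the Twist pair, which 431 of 2804 Dpp4-type cells shared against 406 if independent. In the 316 F3-type cells the range was -0.13 to 0.23. Such weak values in sparse counts are not findings.

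The libraries were close to each other for the members at the level in Dpp4-type cells, and less so elsewhere. In Dpp4-type cells, with libraries scaled by TMM (trimmed mean of M values), no member at the level differed 1.5-fold between library 1 and library 2, where 0.59% of 6776 genes did. The member with an interval apart from 0 was Prrx2, at 30.3 CPM in library 1 and 25.2 CPM in library 2, a log2 ratio of 0.27 (0.10 to 0.44). The same ratio over all precursors was 0.27 (0.16 to 0.38). Over all precursors, intervals also lay apart from 0 for Meox1, at -0.80 (-1.21 to -0.39), and Meox2, at 0.23 (0.05 to 0.41). So did those of Twist2, at 0.14 (0.08 to 0.21), and Prrx1, at 0.07 (0.03 to 0.12), while the remaining members had intervals that span 0. The mix of states also differed between libraries 1 and 2. The Cilp-led cluster made up 10.7% and 8.12% of kept cells and committed cells 16.7% and 19.0%. The part of that mix in the ratios over all precursors was not tested. In committed cells Meox1 had 6.18 CPM in library 1 and 11.1 CPM in library 2, a log2 ratio of -0.86 (-1.45 to -0.29), and it was the 1 member past 1.5-fold there. The share of all genes past 1.5-fold in committed cells was not taken, so that count has no background. With 1 library each, the spread between samples is not known.

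Both libraries held cells with and without Y-linked UMIs, and the ratios were recomputed in each kind, a split added after the data were seen. In 2848 Xist-positive cells (4 or more Xist UMIs, no UMI of Uty, Kdm5d, Ddx3y or Eif2s3y, which are Y-linked), Meox2 had 68.3 CPM in F3-type and 7.30 CPM in Dpp4-type cells, a log2 ratio of 3.22. In 1882 Y-positive cells (1 Xist UMI or none, at least 1 Y-linked UMI) it had 69.4 and 9.46 CPM, a ratio of 2.88. The Osr2 ratio of committed over Dpp4-type cells was -1.19 in both. Meox1 had 10.3 CPM in Xist-positive and 4.88 CPM in Y-positive committed cells, from classes of 521 and 333 cells. Whether the Meox1 difference between libraries follows their makeup was not tested.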

How the data were processed

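Single-cell RNA was counted in sorted adipocyte precursors. The values the authors deposited are raw UMI counts for every gene and barcode. Cell Ranger (version not given in the sources used here), Seurat 3.0.1 and the mm10 build are named in the submitters' processing notes, with no role stated. Per the labels, the cells had been sorted fresh and, in another protocol, frozen and thawed.

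Cells with at least 500 genes and at most 10% mitochondrial counts were kept, and Scrublet calls were removed (scanpy 1.11.5). Clustering used log counts scaled to 10000 a cell, 2000 variable genes without the members, related factors or cycling genes, 30 components, 15 neighbours and Leiden resolution 0.5. A marker was raised at 20 CPM and 2-fold over the median of the other clusters. A name needed 3 raised markers, 50% of the list and at least 1 marker of its own among the 10 leading genes (50 CPM, prior 5 CPM). Members, lists and comparisons were chosen with earlier results of these data known.

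Counts were summed per class. Sums have exact Poisson, ratios conditional exact and shares Clopper-Pearson intervals, at 95%, for counting error only. A floor of 0 counts allows 3. Similar genes needed 20 CPM at 1 point. Named genes were all members, 3 similar genes each and related genes called between named classes. Thinning to 7463 UMIs (10th percentile) left out 375 cells of library 1 and 312 of library 2. TMM used edgeR 4.0.16 and size factors DESeq2 1.42.0, for scaling only. The ratio code was tested on simulated counts. Strand use in counting was not given in the sources used here. A check of F3-type cells for RNA of another cell type is not reported here, so its part in their levels is not given.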

Additional observations from a re-analysis of the deposited data

How the results depend on the processing

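No paired analysis was possible because the ratios come from no test. Each class occurs in both libraries, and the ratios within each library pair the classes by library: their sign was the same in both for 10 of 10 members in F3-type over Dpp4-type and in F3-type over committed cells, and for 9 of 10 in committed over Dpp4-type cells, all but Tbx15. Each member's class of highest level among F3-type, committed and Dpp4-type cells was the same for 10 of 10 members in every setting that gave all 3 classes. At Leiden resolution 1 no cluster was named Dpp4-type, so only F3-type over committed cells gave a value there, with the same 2 members called. Joining the finer clusters by the class of most of their cells was added after the data were seen, as were the splits by Xist and Y-linked UMIs.

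For committed over Dpp4-type cells the count of members called was 2 in place of 1 in library 2 alone, with a minimum of 5 CPM or none and in Xist-positive cells (Meox1 joined Osr2), and 2 with DESeq2 size factors (Twist2 joined). It was 3 at 1.5-fold, with Tbx18 and Twist2. For F3-type over Dpp4-type cells it was 2 in place of 1, as Osr2 passed 2-fold beside Meox2, with 3000 variable genes, with members among the variable genes, with predicted doublets kept, with the stricter cell filter, in library 2 alone, with finer clusters joined and in Xist-positive cells. It was 2 with no minimum (Meox1 joined) and 3 at 1.5-fold (Prrx2 and Osr2). For F3-type over committed cells, Meox1, which was lower, joined Meox2 and Tbx18 with a minimum of 5 CPM or none and in Xist-positive cells. Prrx2 joined them at 1.5-fold. The share of all genes called was not taken under the changed thresholds, clusterings or subsets of cells. A looser threshold can only add calls, so these counts say nothing particular about the members. Between libraries, 1 member passed 1.5-fold in committed cells, where the share of all genes was not taken, in place of 0 in Dpp4-type cells. Beyond the settings whose construction explains it, the cause was not tested. Of 428 member ratios under alternatives, 389 lay within the counting interval of the reported value, 39 lay outside, and no called ratio changed sign. The Meox2 log2 ratio of F3-type over Dpp4-type cells ranged from 2.49 to 3.22 and the Osr2 ratio of committed over Dpp4-type cells from -1.38 to -1.11. The sign of the uncalled Meox2 ratio of committed over Dpp4-type cells held in 9 of 14 alternatives and that of Tbx15 in 12 of 14. Depth limits Meox1, whose 223 precursor UMIs give wide intervals.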
